A study of Mus musculus with 2 samples.

Results

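The genes described here encode the secreted Wnt proteins, their receptors and antagonists, the transcription factors that answer them and a few genes of the feedback loop. They were chosen by name, with earlier results of these data known: every gene on the array whose symbol is Wnt, Fzd, Sfrp, Dkk or Rspo with a number, and 16 further named genes of the pathway. This gave 57 genes, with 87 probes, among the 27343 genes named on the array. Lens RNA of newborn mice (postnatal day 1) was compared between an Msx2 conditional knockout, called CKO below, and wild type (Msx2 WT), with 1 array per genotype. In the CKO, the transcription factor gene Msx2 is deleted by Cre recombinase of the Le-Cre line, whose transgene acts in the surface ectoderm that forms the lens. Whether Le-Cre was also present in the control animals is not stated in the labels, so the transgene and the loss of Msx2 cannot be told apart here. The number of animals behind each array was not stated either.

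Wnt proteins are lipid-modified by the acyltransferase Porcn, secreted, and bound at the cell surface by a Frizzled receptor together with the co-receptor Lrp5 or Lrp6. In the canonical branch this stops the destruction of beta-catenin, which then enters the nucleus and switches on genes through the TCF/LEF factors; other Wnts act on cell shape and polarity without beta-catenin. Secreted Sfrp proteins and Wif1 bind Wnts, Dkk proteins occupy the co-receptors, and R-spondins spare Frizzled receptors from the ligases Znrf3 and Rnf43. In the lens, canonical signalling is known for keeping the epithelium and for restricting where lens tissue forms, and polarity signalling for the ordering of the fibre cells.

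A processed signal is the background-corrected and scaled spot brightness, in arbitrary intensity units, and the value after ± is the scanner software's own error for that spot, which holds no variation between animals. Probes with the brightest signal stood for their gene. A log2 difference is CKO minus wild type after each array was divided by its 75th percentile, which was 203 for CKO and 201 for wild type. The 2 arrays had 55.1% and 54.2% of 41173 probes well above background, and no spot was saturated. The precision is limited by having 1 array per genotype: there is no replicate check of any difference and no test was possible, so all counts below describe these 2 arrays. For scale, 126 probes printed in several spots varied with an SD of 0.23 between the log2 differences of their single spots, and different probes of the same gene with an SD of 0.36. Split at their median level, the brighter of the 126 probes had an SD of 0.066 and the dimmer 0.32. Msx2 itself read 4.62 ± 1.77 in CKO and 371 ± 15.9 in wild type (SD over 10 spots), at least 22.6-fold lower in CKO. All 14 lens fibre markers and all 7 lens epithelium markers checked were well above background on both arrays.

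Of the 57 genes, 31 were well above background on both arrays and are called measured. The CKO array alone showed 3 (Nkd2, Rnf43 and Sp5), the wild-type array alone showed 2 (Wnt4 and Sfrp5), and 21 were not well above background on either array. Among the 31 measured genes, 8 were at least 2-fold higher in CKO and 0 were at least 2-fold lower. In all 14221 measured genes the shares were 4.11% higher and 3.98% lower. The 8 were the Wnt genes Wnt3 and Wnt5a, the receptor genes Fzd7 and Lgr5, the antagonist genes Dkk2 and Apcdd1, and the TCF/LEF genes Tcf7 and Lef1. The members' differences ran from -0.88 (Sfrp1) to 2.09 (Dkk2), with a median of 0.05, where all measured genes had a median of -0.12.

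**Figure D1:**
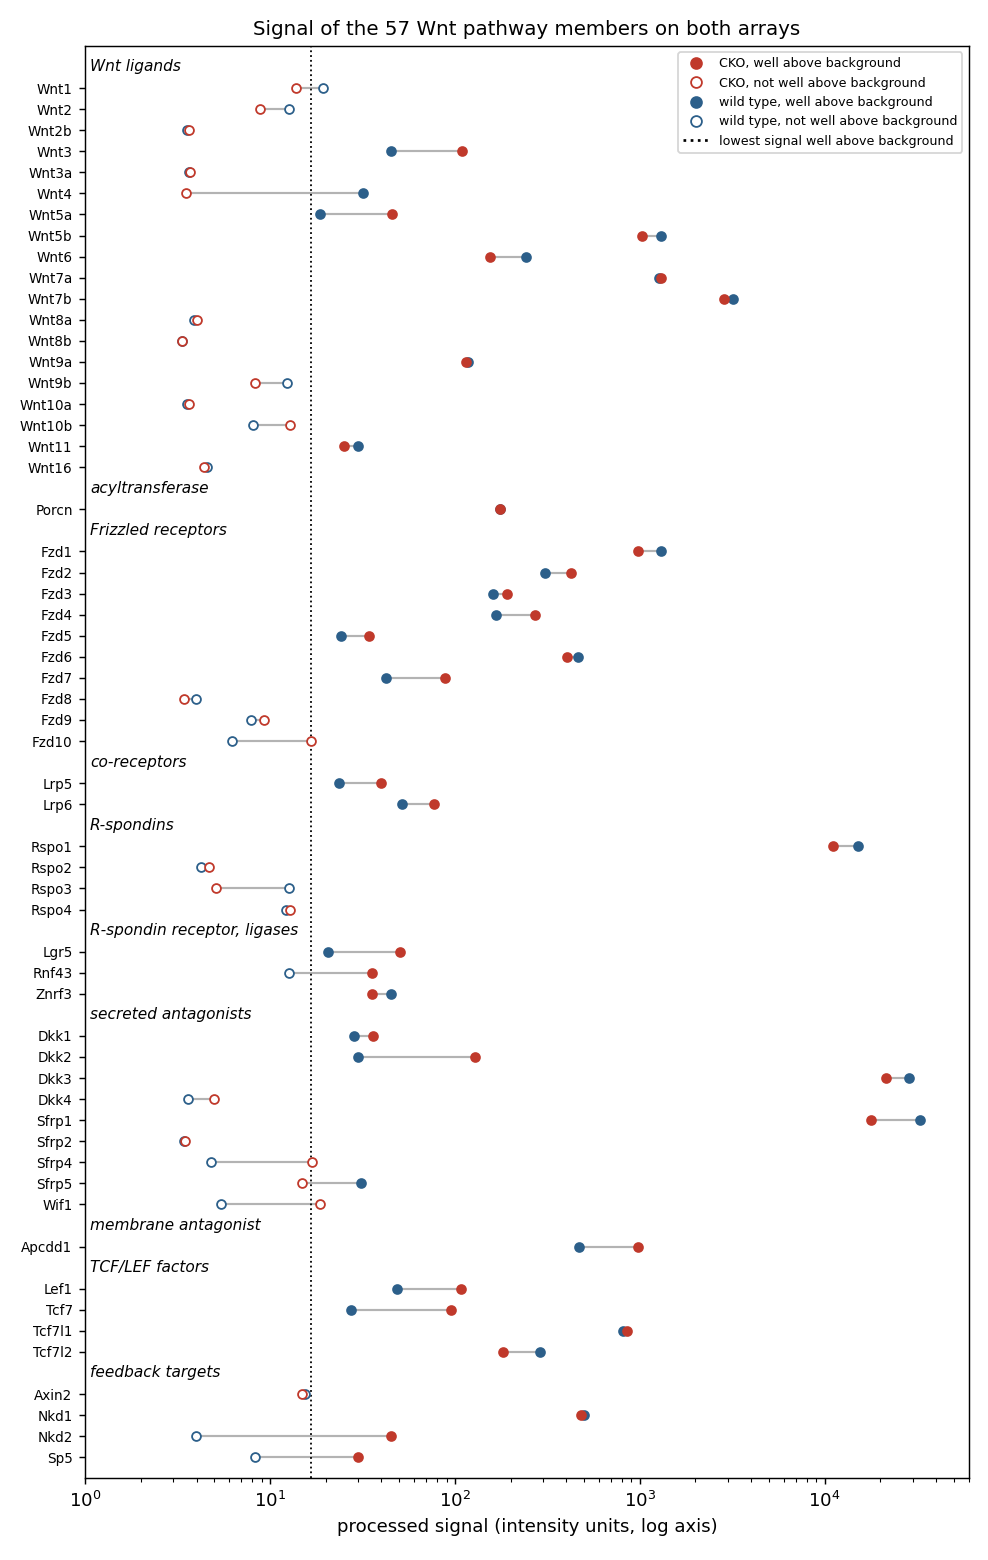
Processed signal (arbitrary intensity units, log axis) of each of the 57 genes on the CKO and the wild-type array, ordered by role; filled points are well above background and open points are not. Among genes with both points filled, the CKO points of Dkk2 (128 against 29.9) and Tcf7 (95.2 against 27.4) lie farthest to the right of their wild-type points.

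The probes behind the higher genes are shown because 1 probe decides each value. Each is a 60-base DNA probe placed by the array file on the mouse build mm9, and the first 30 bases, 5′ to 3′, are given for 7 of the 8 genes. Whether a probe lies in coding sequence or in a UTR was not analysed here.
Dkk2, chr3:131842357-131842416, plus strand: tcagagtgatgatgtcatcagaagtttata
Tcf7, chr11:52066114-52066173, minus strand: ttttttcattctcgctgtagatagcctgaa
Lef1, chr3:130907851-130926012, plus strand: gtacaggtcccagaatgacagctgcctaca
Wnt3, chr11:103677409-103677468, plus strand: attgtgcgactggatccattcatcgaagtc
Wnt5a, chr14:29340427-29340486, plus strand: aaatgccttgttaacgaacttcatgaagca
Lgr5, chr10:114888847-114888906, minus strand: aaacaccgcttgtatcatttgttcagctaa
Fzd7, chr1:59543192-59543251, plus strand: aagggaaggtgaacttcaaagtgattctgg
The Lef1 probe covers far more genome than its 60 bases, so it crosses from one exon into another.

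Of the 19 Wnt ligand genes, 8 were measured, 1 was well above background in wild type only and 10 on neither array. Wnt3, a ligand of the canonical branch, had a signal of 109 ± 11.7 in CKO and 45.0 ± 6.07 in wild type, a 2.41-fold higher value (log2 difference 1.27). Wnt5a, best known as a ligand of the polarity branch, had 45.4 ± 5.72 in CKO and 18.6 ± 3.88 in wild type, which is 2.43-fold higher. Both wild-type signals were faint, that of Wnt5a close to the lowest signal called well above background on that array (16.6). Wnt4 ran the other way: its probe read 32.0 ± 4.84 in wild type and 3.50 ± 3.49 in CKO. It was not well above background in CKO, so it was at least 1.95-fold lower in CKO. Such a bound, here and below, uses the signals alone and leaves out their spot errors. Genes above background in wild type only were 5.32% of the 16170 genes seen on at least 1 array, and those in CKO only 6.62%.

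The other 6 measured ligand genes differed less than 2-fold. Wnt6 had 155 ± 15.9 in CKO and 242 ± 24.4 in wild type, 1.57-fold lower in CKO. Its dimmer second probe was well above background in CKO only (20.2 against 12.3), the other direction. Wnt5b, a close relative of Wnt5a, had 1028 ± 103 and 1304 ± 131, 1.28-fold lower in CKO by its brightest probe. Its second measured probe had a log2 difference of 0.11, so the probes of Wnt5b differed in direction. Wnt11, a polarity ligand, had 25.0 ± 4.99 in CKO and 29.9 ± 5.17 in wild type, a log2 difference of -0.27 that is smaller than its spot error of 0.38. Wnt7a, Wnt7b and Wnt9a had log2 differences of 0.03, -0.17 and -0.05, each smaller than its spot error, and each changed sign under at least 1 of 8 other ways of processing. Wnt7b had 2849 ± 285 in CKO and 3192 ± 319 in wild type, and Wnt7a 1309 ± 131 and 1275 ± 128. So the ligand genes did not move as a block: 2 were past 2-fold higher, and the median of the 8 measured was -0.11, next to -0.12 for all genes.

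The 10 ligand genes not well above background on either array were Wnt1, Wnt2, Wnt2b, Wnt3a, Wnt8a, Wnt8b, Wnt9b, Wnt10a, Wnt10b and Wnt16. They give no fold. Such a call is a matter of the software's threshold and does not say that no signal was there. Wnt1 was printed in 10 spots, of which 3 in CKO and 5 in wild type were well above background. Its signal was 13.8 ± 7.25 in CKO and 19.3 ± 5.30 in wild type (SD over spots), and the ranges over spots, 4.54 to 24.9 and 11.2 to 29.4, overlapped. Porcn, the enzyme that makes Wnts fit for secretion, had 175 ± 17.9 in CKO and 176 ± 17.97 in wild type. The log2 difference of Porcn, -0.02, was smaller than its spot error of 0.21, and its sign changed with the processing.

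Of the 10 Frizzled genes, 7 were measured and Fzd8, Fzd9 and Fzd10 were not well above background on either array. Fzd7, a receptor used in both branches, had 88.2 ± 10.4 in CKO and 42.2 ± 6.87 in wild type, 2.08-fold higher. Fzd4, the receptor for Norrin as well as for Wnts, had 272 ± 27.5 and 167 ± 17.1, 1.62-fold higher. Fzd2 had 423 ± 42.4 and 305 ± 30.8, 1.37-fold higher, and its second measured probe had a log2 difference of 0.21 against 0.46. Fzd5, a receptor with known roles in the developing eye, had 34.3 ± 5.40 and 24.2 ± 5.03, 1.41-fold higher with a spot error of 0.38 on a log2 difference of 0.49. Fzd1 had 980 ± 98.1 in CKO and 1310 ± 131 in wild type, 1.35-fold lower. Fzd6, a polarity receptor, had 405 ± 40.7 and 461 ± 46.2, a log2 difference of -0.20 no larger than its spot error. Fzd3, also a polarity receptor, had 191 ± 19.8 and 160 ± 17.0 by its brightest probe; its measured probes ran from -0.25 to 0.24, and its sign changed with the processing. The median of the 7 was 0.46, with 1 past 2-fold.

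Fzd2 and Fzd7 are close paralogs, and the array has a probe for each in the same conserved stretch. These 2 probes are printed whole, with capitals where the bases are equal in an alignment of 50 bases without gaps, of which 42 (84%) were equal.
Fzd2, chr11:102467613-102467672, plus strand: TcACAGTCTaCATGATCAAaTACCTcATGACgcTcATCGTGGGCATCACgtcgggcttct
Fzd7, chr1:59541367-59541426, plus strand: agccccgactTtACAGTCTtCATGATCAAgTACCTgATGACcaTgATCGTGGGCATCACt
The Fzd2 probe is the one behind the values above. This Fzd7 probe is not the one that gave the 2.08-fold value: it was not well above background on either array, at 3.68 in CKO and 3.56 in wild type.

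Both co-receptor genes had higher signals in CKO, and neither was 2-fold different. Lrp5 had 39.8 ± 5.50 in CKO and 23.6 ± 4.45 in wild type, 1.68-fold higher. Lrp6 had 76.7 ± 8.35 and 51.8 ± 6.14, 1.47-fold higher, with a log2 difference of 0.23 at its second measured probe.

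The R-spondin branch tunes how many Frizzled receptors remain on the cell. Rspo1, a secreted enhancer of Wnt signalling, was bright on both arrays, at 11153 ± 1115 in CKO and 15077 ± 1508 in wild type, 1.36-fold lower in CKO. Rspo2, Rspo3 and Rspo4 were not well above background on either array. Lgr5, an R-spondin receptor and itself a canonical target gene, had 50.3 ± 6.18 in CKO and 20.6 ± 4.06 in wild type, 2.43-fold higher. Rnf43, a ligase that removes Frizzled receptors, had 35.5 ± 6.13 in CKO and 12.7 ± 5.15 in wild type. It was not well above background in wild type, so it was at least 2.13-fold higher in CKO, spot errors not counted. Znrf3, its partner ligase, had 35.7 ± 4.94 and 44.9 ± 5.62, 1.27-fold lower in CKO.

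The secreted antagonists split. Dkk2, a ligand of Lrp5 and Lrp6 that can block or weakly activate the pathway, had the largest difference of all 31 measured members: 128 ± 13.2 in CKO and 29.9 ± 4.53 in wild type, 4.25-fold higher (log2 difference 2.09, spot error 0.26). It rests on a single probe. Dkk1, the classical inhibitor of the co-receptors, had 35.9 ± 4.96 and 28.5 ± 4.42, a log2 difference of 0.33 against a spot error of 0.30. Its second probe was well above background in CKO only, at 31.8 against 11.5. Dkk3, a divergent family member abundant in many epithelia, had 21546 ± 2155 in CKO and 28470 ± 2847 in wild type, 1.33-fold lower in CKO. Dkk4 was not well above background on either array.

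Sfrp1, a secreted protein that binds Wnts, had 17867 ± 1787 in CKO and 32725 ± 3273 in wild type. It was 1.84-fold lower in CKO, the lowest log2 difference of the measured members (-0.88), and its second measured probe gave -0.65. Sfrp5, of the same family, was well above background in wild type only, at 30.9 ± 4.94 against 14.9 ± 4.03, at least 1.88-fold lower in CKO. Sfrp2 and Sfrp4 were not well above background on either array, nor was Wif1, a Wnt-binding protein of another fold, at 18.6 ± 5.69 in CKO and 5.45 ± 5.45 in wild type. Both Sfrp genes seen on an array were thus brighter in wild type, and 2 of the 3 measured Dkk genes were brighter in CKO. Over all 14221 measured genes, 8637 had a log2 difference below 0 and 5584 above, so such small counts do not set these families apart. Apcdd1, a membrane protein that binds Wnts and Lrp5 and restrains the pathway, had 974 ± 97.5 in CKO and 471 ± 47.3 in wild type, 2.05-fold higher.

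All 4 TCF/LEF genes were measured. Tcf7, which encodes TCF1, had 95.2 ± 10.2 in CKO and 27.4 ± 4.71 in wild type, 3.45-fold higher. Lef1, mostly an activator in the presence of beta-catenin, had 107.4 ± 11.7 and 48.4 ± 6.74, 2.20-fold higher, and its second measured probe had a larger log2 difference, 1.70 against 1.14. Tcf7l2, which encodes TCF4, went the other way with 182 ± 18.7 in CKO and 288 ± 29.2 in wild type, 1.60-fold lower, and -0.48 at its second measured probe. Tcf7l1, which encodes the mainly repressive TCF3, had 849 ± 85.0 and 812 ± 81.3, a log2 difference of 0.05 below its spot error, and its sign changed under median scaling alone, which shifts all genes downwards alike. So 2 of these 4 factors were past 2-fold higher and 1 was lower by less than 2-fold.

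The feedback genes Axin2, Nkd1, Nkd2 and Sp5 are induced by canonical signalling in many tissues. Nkd2, an inhibitor that acts on Dishevelled, had 45.2 ± 5.61 in CKO and 3.98 ± 3.34 in wild type, where it was not well above background, at least 2.71-fold higher. Sp5, a transcription factor, had 29.8 ± 5.003 in CKO and 8.24 ± 4.34 in wild type, at least 1.79-fold higher. Nkd1, the relative of Nkd2, had 481 ± 48.3 and 497 ± 49.9, with -0.06 at its brightest and 0.34 at its second measured probe. Axin2, the scaffold most often used as a readout of canonical signalling, was not well above background on either array, at 14.8 ± 4.16 and 15.4 ± 4.09, and no fold is given for it. Nkd2 and Rnf43 were the members in CKO only with a bound of at least 2-fold, a pattern seen in 2.3% of the 16170 genes; no member had such a bound in wild type only, seen in 1.34%. Genes not well above background on either array were 40.9% of all genes, and 21 of the 57 members.

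**Figure D2:**
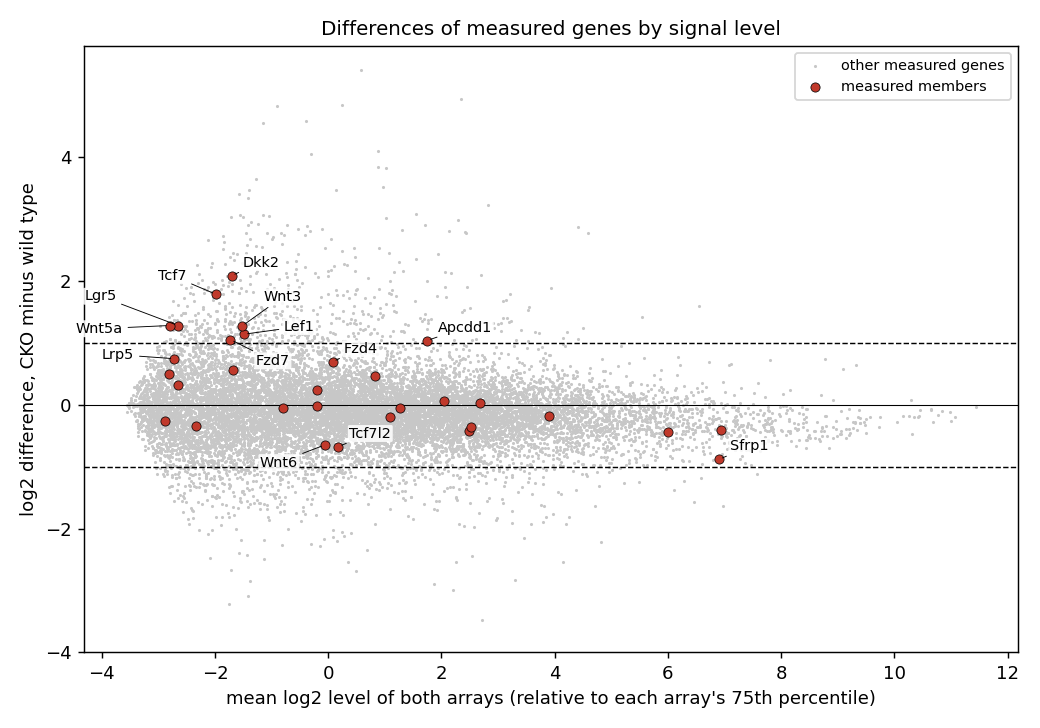
Log2 difference (CKO minus wild type) against mean log2 level relative to each array's 75th percentile, for all 14221 measured genes in grey and the 31 measured members in red; dashed lines mark 2-fold. Of the 8 members above the upper line, 7 lie at levels from -3 to -1 and Apcdd1 lies at a higher level; Sfrp1 lies lowest among the members, at -0.88.

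Most of the higher members were dim genes. The members were split at a mean log2 level of -1, a split chosen after the values were seen. At levels from -3 to -1 there were 13 members: 7 had a value at least 2-fold higher in CKO and 0 a lower one. Of all 3922 genes at these levels, 7.42% were at least 2-fold higher and 5.58% lower. The median of the 13 was 1.05, against -0.05 for all genes there. At levels of -1 and above there were 18 members, with 1 higher (Apcdd1) and 0 lower. All 9870 genes at those levels had 2.97% higher, and the medians were -0.12 for the members and -0.13 for all genes. The plot of difference by level shows both parts.

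Another background correction moved the higher members most. The normexp background model adds an offset of 50 intensity units and pulls faint signals together. With it, Dkk2 (1.11) and Apcdd1 (1.01) were past 2-fold, 2 genes in place of 8, where 1.64% of all genes were higher. Under it the log2 differences of the other 6 were 0.76 for Tcf7, 0.64 for Wnt3, 0.57 for Lef1, 0.43 for Lgr5, 0.38 for Wnt5a and 0.37 for Fzd7. In wild type the processed signals of these 6 were below 50, and an offset of that size lowers log2 differences by itself. How much of the drop it made was not tested. All 8 kept their direction under each of the 8 ways of processing that were tried. Some of these ways could not change it. Median scaling shifts all genes alike, by less than any of these 8 differences. The deposited table and quantile scaling both give the 2 arrays the same distribution, so they are not independent checks. Using no filter on dim probes, or a filter at the median level, returned the reported value for each of the 8 genes. The mean of measured probes did so too for all but Lef1, which alone had a second measured probe. Of the 31 measured members 24 kept their direction under all 8 ways, and Fzd3, Nkd1, Porcn, Tcf7l1, Wnt7a, Wnt7b and Wnt9a changed sign under at least 1.

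**Figure D3:**
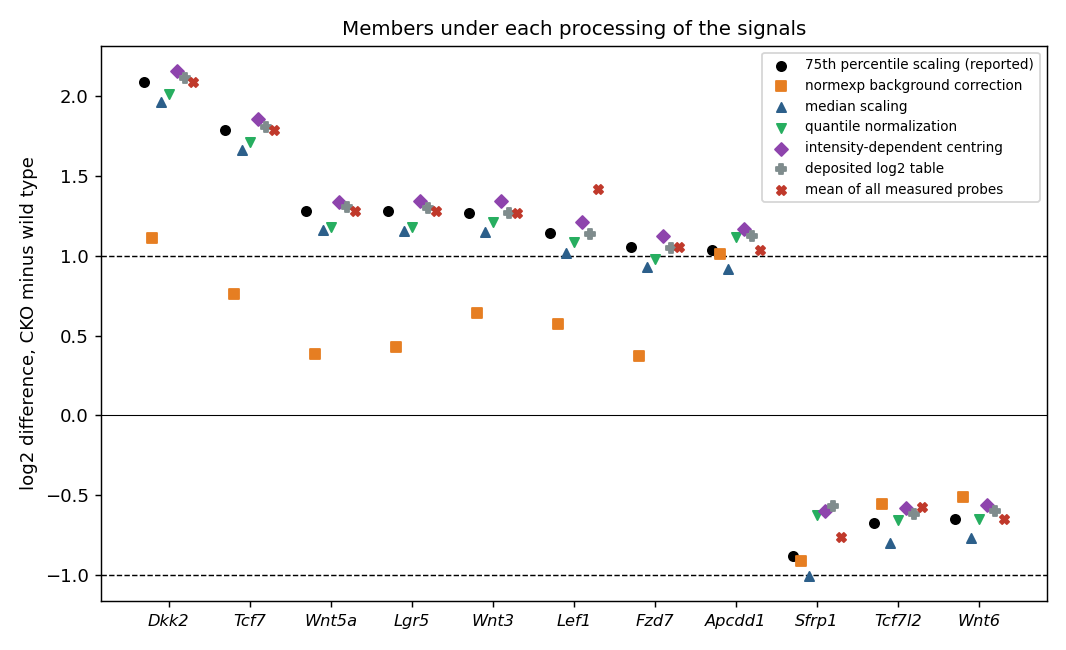
Log2 difference (CKO minus wild type) of the 8 higher genes and of Sfrp1, Tcf7l2 and Wnt6. Values are shown as reported and under normexp, median, quantile and intensity-dependent scaling, the deposited table and the mean of probes. Other filters are not plotted, and dashed lines mark 2-fold. For 7 of the 8 higher genes the normexp value lies nearest to 0, such as 0.37 for Fzd7 against 1.05 (for Apcdd1 it is the median-scaled one, 0.92). Dkk2 stays past 2-fold in every alternative plotted.

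The array holds more than 1 probe for some of the genes, which allows a comparison within a gene. Of the 57 genes, 26 had more than 1 probe, and 9 had at least 2 measured probes. In 6 of these 9 the probes had the same direction (Fzd2, Lef1, Lrp6, Sfrp1, Tcf7l1 and Tcf7l2), and in Fzd3, Nkd1 and Wnt5b they did not. Lef1 was the only gene of the 8 with a second measured probe. The second probes of Tcf7 (18.8 in CKO, 13.5 in wild type), Wnt3 (29.9 and 20.2) and Apcdd1 (24.7 and 14.2) were well above background in CKO only. Those of Fzd7, Wnt5a and Lgr5 were dark, that is not well above background on either array. The bounds of Nkd2 and Rnf43 each rest on 1 probe too: the second probe of Nkd2 (4.16 in CKO, 3.56 in wild type) and that of Rnf43 (7.05 and 3.90) were dark.

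**Figure D4:**
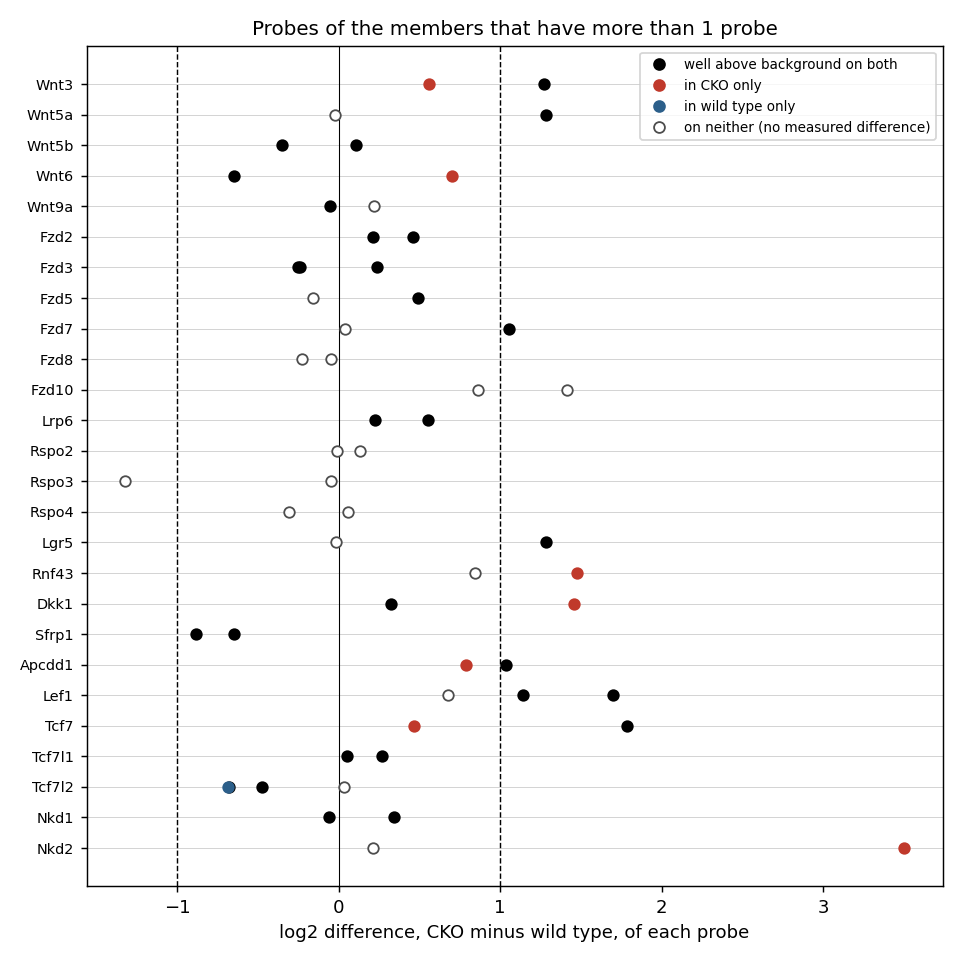
Log2 difference (CKO minus wild type) of every probe of the members with more than 1 probe; black points are measured on both arrays, and only these are measured differences. The 2 black points of Lef1 lie at 1.14 and 1.70, and those of Sfrp1 at -0.88 and -0.65.

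The dark Wnt5a probe and the Wnt4 probe are printed because both lie across a splice junction: each covers more genome than its 60 bases. The Wnt5a probe read 4.37 in CKO and 4.41 in wild type, and the Wnt4 probe gave the values stated for that gene.
Wnt5a, second probe, chr14:29331746-29335708, plus strand: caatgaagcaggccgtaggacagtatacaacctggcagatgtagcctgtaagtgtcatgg
Wnt4, chr4:136851690-136852258, plus strand: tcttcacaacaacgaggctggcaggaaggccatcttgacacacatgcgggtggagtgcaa
The Wnt5a signal therefore rests on the one probe given further up.

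TCF/LEF factors recognise a short core, searched here as CTTTGAT and CTTTGAA on both strands in the 250 bases before each gene start, with promoters from RefSeq (GRCm38.p6). Promoters were held for 37 of the 57 genes, 46 in all. Of these 46, 4 held a match (8.70%), and of all 32851 promoters 7.48% did. The matches with 20 bases on each side are printed with the core in capitals (ATCAAAG is CTTTGAT read on the other strand).
Sp5, chr2:70474799-70474845, plus strand: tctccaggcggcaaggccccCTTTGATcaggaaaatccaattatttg
Wnt5b, chr6:119449431-119449477, minus strand: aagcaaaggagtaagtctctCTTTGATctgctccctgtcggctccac
Wnt11, chr7:98835041-98835087, plus strand: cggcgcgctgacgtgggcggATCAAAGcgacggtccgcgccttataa
Dkk1, chr19:30549587-30549633, minus strand: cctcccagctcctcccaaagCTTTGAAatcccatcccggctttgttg
The genes with a match had a CKO-only signal (Sp5), a log2 difference of 0.33 (Dkk1), and differences of -0.27 (Wnt11) and -0.35 (Wnt5b). Promoters were held for 5 of the 8 higher genes, and none of them had a match in these windows.

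The wider pathway was read from 4 lists drawn up with earlier results of these data known. Of 32 genes of the destruction complex, Dishevelled, beta-catenin and its nuclear partners, 30 were measured and 0 were 2-fold different in either direction, with a median of 0.01. Ctnnb1, beta-catenin itself, had 3927 in CKO and 6018 in wild type, 1.54-fold lower in CKO (log2 difference -0.63). Its other measured probes gave -0.51 and -0.13. The largest differences in this list were -0.97 for Csnk1a1 and -0.93 for Csnk1e, both casein kinases, and 0.92 and 0.68 for the co-repressor genes Tle1 and Tle6. The probes of Csnk1a1 did not go together: its others ran from -0.39 to 0.03. Those of Tle1 did, at 0.94, 0.92 and 0.77.

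The second list held 24 other modulators at the cell surface or outside the cell, and 21 were measured. In CKO, 2 of these were higher by 2-fold or more and 1 was lower, with a median of 0.02. Frzb, a secreted Frizzled-related protein that binds Wnts as the Sfrp proteins do, had 34.4 ± 4.80 in CKO and 118 ± 12.2 in wild type, 3.44-fold lower in CKO. Under normexp its log2 difference was -0.91 against -1.78. Adgra2, a co-receptor for Wnt7 known from brain vessels, had 157 in CKO and 60.7 in wild type, 2.56-fold higher, and 0.86 in log2 under normexp. Sulf2, which trims heparan sulphate that holds Wnts, had 842 and 343, 2.44-fold higher, with 1.18 at its second probe. Gpc3, a glypican, was well above background in CKO only, at least 3.36-fold higher. Kremen2, a partner of Dkk proteins, had 33.98 and 18.3, 1.84-fold higher, and a log2 difference of 0.30 under normexp against 0.88.

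The third list held 20 genes of the polarity and other beta-catenin-independent branches, of which 17 were measured, 0 at least 2-fold higher and 2 lower, with a median of -0.34. Daam2, a formin downstream of Dishevelled, had 227 in CKO and 581 in wild type, 2.58-fold lower, with -0.67 at its second measured probe. Dact1, a Dishevelled-binding protein, had 72.6 and 146, 2.02-fold lower, -0.89 at its second measured probe and -0.69 at the first under normexp. Celsr1, a polarity cadherin, and Prickle3 had -0.85 and 0.75.

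The last list held 24 further genes known as canonical targets in some tissue; 11 were measured, 0 were 2-fold different, and the median was 0.13. Ccnd1, cyclin D1, had 1386 in CKO and 1243 in wild type. Nrcam, a cell adhesion gene, had 14078 and 27124 and its 3 probes gave -0.96, -0.89 and -0.83. Bambi, a decoy receptor of the TGF-beta family, had 354 and 190, a log2 difference of 0.89. Jun, a transcription factor of the AP-1 complex, had -0.70, and Cd44, a hyaluronan receptor, had 0.58. Myc was well above background in CKO only, 45.2 against 14.2, at least 2.68-fold higher. In the 4 lists together, 2 measured genes were past 2-fold higher (Adgra2 and Sulf2) and 3 lower (Frzb, Daam2 and Dact1), beside shares of 4.11% and 3.98% over all measured genes.

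**Figure D5:**
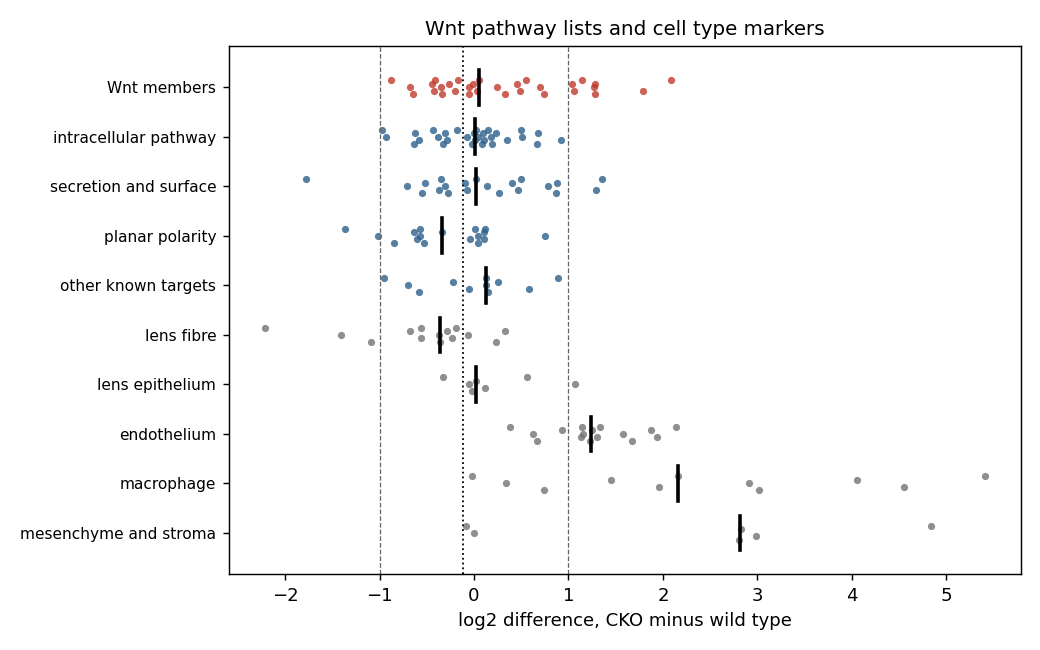
Log2 difference (CKO minus wild type) of the measured genes of the members, the 4 pathway lists and some of the marker lists, with each list's median. The marker lists shown are lens fibre, lens epithelium, endothelium, macrophage, and mesenchyme and stroma. The medians of endothelium (1.23), macrophage (2.16) and mesenchyme (2.81) lie far above those of the members (0.05) and the pathway lists (-0.34 to 0.13).

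Genes of tissues that surround or supply the newborn lens also differed between the arrays, and their part in the member values was not tested. Of 17 endothelial markers, 16 were measured and 12 were at least 2-fold higher in CKO, and Pecam1 was in CKO only. Their summed signal, in units of the array's 75th percentile, was 48.3 in CKO and 21.5 in wild type, a ratio of 2.24. Of 20 macrophage markers, 11 were measured with 8 at least 2-fold higher, 8 were in CKO only and Itgam in wild type only, with sums of 47.6 and 7.54. Of 13 markers of ocular mesenchyme and corneal stroma, 6 were measured with 4 higher, 5 were in CKO only, and Kera and Foxc2 were on neither array. Their sums were 62.9 and 6.59, a ratio of 9.54. Dcn, at 5740 in CKO and a dark 4.80 in wild type, weighs most in the CKO sum. Pdgfra and Foxc1, also measured, had log2 differences of -0.08 and -0.004. The share of 2-fold higher genes over all measured genes was 4.11%, as given above.

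Markers of other neighbouring tissues were read in the same way. Pericyte and smooth muscle markers had 3 of 8 measured genes at least 2-fold higher with sums of 31.2 and 28.0. Those of ciliary body and iris had 3 of 5 with 5.09 and 2.66, and those of pigment cells 3 of 5 with 5.63 and 4.49. The other 2 measured pigment genes, Mitf and Oca2, were lower in CKO at -0.90 and -0.78. Tyrp1 and Mlana were in CKO only, and 3 pigment genes were dark on both arrays. Retinal markers were dark on both arrays in 7 of 11 genes, and of the 3 measured 1 was higher and 1 lower (sums 2.26 and 2.56). Surface epithelial markers were dark in 5 of 11, and 2 of the 3 measured were lower (sums 4.82 and 6.80). Skeletal muscle markers were dark in 5 of 8, and 1 of the 2 measured was higher (sums 1.01 and 0.54). Lens fibre markers had 0 higher and 3 lower of 14, a median of -0.36 and sums of 6946 and 8296. Lens epithelium markers had 1 of 7 higher (Pdpn) and sums of 29.3 and 30.9. In whole-lens RNA, a different number of cells of a type and a different amount of RNA per cell cannot be told apart.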

How the data were processed

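Lens RNA was measured on 1 one-colour Agilent array (Cy3) for each of 2 genotypes. Per the file headers, the authors' scanner output was made with Feature Extraction 10.7.3.1 (10.7 in the submitters' processing notes), and its deposited processed signal is a background-corrected intensity. The value table holds deposited log2 values of the same arrays, with a median of 4.87 in each column. Sorted, its 2 columns differed by at most 0.000428, so both hold the same distribution, as after quantile scaling. No source used here states its scaling or shift. The table was used as an alternative, which is not independent of the quantile scaling.

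Control and outlier spots were left out and spots of a probe averaged. Signals were divided by each array's 75th percentile and put on a log2 scale. A gene was measured where a probe was well above background in more than 50% of its spots on both arrays, and its brightest such probe was used. Where 1 array alone passed, a bound against the higher of the dim probe's own signal and the lowest signal well above background on that array is given. Spot errors do not enter this bound. Probe accessions were renamed through RefSeq where they matched (27667 probes); 7446 kept the file's name. The scripts were tested on simulated data. Python 3.11.15 with pandas 2.3.3 and scipy 1.17.1, and R 4.3.3 with limma 3.58.1 for normexp, were used.

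The members and all lists were chosen with earlier results of these data known. Named with values were members seen on an array, the 4 largest differences of each pathway list and genes past a 2-fold bound; others, such as Ctnnb1, Ccnd1 and Axin2, were added for their role. Alternatives were normexp, median, quantile and intensity-dependent scaling, the deposited table, other filters and fold thresholds, and the mean of a gene's probes.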

Additional observations from a re-analysis of the deposited data

How the results depend on the processing

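The count of members at least 2-fold higher was 8. It was 2 with normexp (1.64% of all genes), 14 of 57 with no filter on dim probes (7.41%), and 2 at a 3-fold threshold (1.48% of all genes). It stayed between 6 and 8 under median, quantile and intensity-dependent scaling, the deposited table, the filter at the median level and the mean of probes. The count of lower members was 0. It was 1 with median scaling (Sfrp1 at -1.01, with 5.93% of all genes lower), 3 with no filter (6.41%) and 3 at a 1.5-fold threshold, where 14.7% of all genes were lower, 10 members higher and 9.36% of all genes higher. The median of the polarity list was -0.34 and became -0.046 with no filter. Median scaling moved the median of all genes from -0.12 to -0.24 and that of the members to -0.07. Under it Fzd7 and Apcdd1 were under 2-fold, and under quantile scaling Fzd7 was. The other 54 summary values tried stayed within 1.5 times the count or moved by less than 0.23, the SD between spots of a probe. Signals near background (16.5 and 16.6 were the lowest called well above it) limit most of the higher members, and 21 members gave no difference. No paired analysis was possible because each genotype has 1 array, so only 1 replicate number is shared.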

Other observations

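A set of genes chosen after their values were seen is that of Norrin, a ligand unrelated to Wnts that acts through Fzd4, Lrp5 and the tetraspanin Tspan12 and is known for its role in the vessels of the eye. Ndp, which encodes Norrin, had a log2 difference of 0.47 (CKO minus wild type), Tspan12 had 0.40, Fzd4 had 0.70 and Lrp5 had 0.74. None was 2-fold different, and all 4 kept their direction under each of the 8 alternatives. Ndp lay between 0.18 and 0.53, Tspan12 between 0.28 and 0.52, Fzd4 between 0.44 and 0.79 and Lrp5 between 0.23 and 0.80. Fzd4 and Lrp5 were lowest under normexp. Each of the 4 has 1 probe, so the other filters and the mean of probes returned the reported value and could not change a direction. Nor could median scaling, whose shift of all genes alike is smaller than these differences. Of the endothelial markers, 12 of 16 measured were at least 2-fold higher in CKO. Whether the 2 go together was not tested, since 1 array per genotype allows no such test.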
